A study of Rattus norvegicus with 12 samples.

Results

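Described here are genes almost silent on average in control islet cells that lay far downstream of any well expressed gene on their strand. They were followed in rat islet cells in which a mitochondrial tRNA fragment was silenced. A gene of the detected-genes table was a member when the mean of its 6 anti-control values was under 0 log2 CPM (log2 of a gene's reads per M, that is mega, reads of the library, after a small prior count) and when no same-strand gene ending within 500 kb upstream had an anti-control mean at or above the median of all genes, 4.47 log2 CPM. Genes of the mitochondrial genome were left out. As the rule used a mean of log2 values, some members were expressed in several controls. Has1, for example, had 35 to 96 reads in anti-control libraries 1 to 4. In total, 308 of the 13733 genes met both conditions, of 1187 silent genes, and the remaining 879 silent genes had an expressed gene within that distance. For 6 members the chromosome held no such upstream gene on their strand at all, and for the others it ended a median of 1442 kb away.

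The table holds total RNA sequencing of dispersed islet cells of male Wistar rats aged 3 months. Cells received 30 pmol of a single-stranded antisense oligonucleotide against mt-tRF-LeuTAA, a piece cut from the leucine tRNA of mitochondria (anti-mt-tRF-LeuTAA, n = 6), or a control oligonucleotide (anti-control, n = 6), and RNA was taken after 72 h. Per the study, N was 6 and each N was the islets of 1 rat. That libraries of the same number in both groups share a rat was inferred from this and from their correlation, and is used below. Dispersed islets are a mixture of endocrine and other cells, and every library was transfected, the controls included. The libraries held 17.6 to 23.4 M reads over the listed genes in anti-control and 16.4 to 20.3 M after silencing, so 1 read stood for 0.045 to 0.059 CPM. Beta cell genes were abundant in all 12 libraries, with a summed level of 82500 to 163000 CPM in anti-control and 88800 to 154000 CPM after silencing over 6 of 6 markers, of which Pdx1, a beta cell transcription factor, was called lower (log2 fold change -0.68, limma adjusted p = 0.0181).

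A gene without reads can gain them by transcription from its own promoter. In other cell systems, transcription that runs past the end of an upstream gene is also known to place reads on silent genes downstream on the same strand. The position of each member relative to its upstream neighbours is therefore given beside its level, and the source of the reads was not tested. Beta cells are known to keep some genes silent that most other tissues express. The members include genes known from muscle, retina, inner ear, testis and liver.

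To show what lies at the starts of members that gained reads, the promoter windows of 5 of them are printed, each from 250 bases before to 50 bases after the annotated start, 5′ to 3′, from RefSeq on the GRCr8 assembly. Myh3, Hormad1 and Otor have a moderately expressed gene close upstream, while Serpinc1 and Klf14 have none within 500 kb in the table. The windows are chr10:52268935-52269234 on the + strand for Myh3, chr2:185805422-185805721 on the + strand for Hormad1, chr3:150868636-150868935 on the + strand for Otor, chr13:75790308-75790607 on the + strand for Serpinc1 and chr4:60524236-60524535 on the - strand for Klf14. Capitals mark matches, on either strand, to the TATA box letters TATAAA, the GC box letters GGGCGG and the CCAAT box letters CCAAT. These motifs do not overlap in the windows shown.
Myh3: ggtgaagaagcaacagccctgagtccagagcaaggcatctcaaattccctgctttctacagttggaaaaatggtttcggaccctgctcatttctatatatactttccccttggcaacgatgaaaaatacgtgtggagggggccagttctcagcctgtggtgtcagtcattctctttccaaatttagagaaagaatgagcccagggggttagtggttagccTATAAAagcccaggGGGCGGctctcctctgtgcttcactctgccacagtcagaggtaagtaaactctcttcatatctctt
Hormad1: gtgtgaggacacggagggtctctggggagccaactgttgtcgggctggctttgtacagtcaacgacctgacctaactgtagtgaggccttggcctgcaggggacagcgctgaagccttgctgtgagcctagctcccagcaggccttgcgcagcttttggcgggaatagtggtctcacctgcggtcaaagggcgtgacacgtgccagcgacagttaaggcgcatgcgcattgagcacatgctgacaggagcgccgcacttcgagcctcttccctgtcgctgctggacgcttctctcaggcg
Otor: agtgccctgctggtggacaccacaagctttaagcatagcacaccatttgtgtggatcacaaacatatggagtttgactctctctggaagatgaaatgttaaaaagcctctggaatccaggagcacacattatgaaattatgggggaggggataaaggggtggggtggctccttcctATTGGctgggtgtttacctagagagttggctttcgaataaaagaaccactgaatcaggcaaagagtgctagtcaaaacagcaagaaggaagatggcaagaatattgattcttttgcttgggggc
Serpinc1: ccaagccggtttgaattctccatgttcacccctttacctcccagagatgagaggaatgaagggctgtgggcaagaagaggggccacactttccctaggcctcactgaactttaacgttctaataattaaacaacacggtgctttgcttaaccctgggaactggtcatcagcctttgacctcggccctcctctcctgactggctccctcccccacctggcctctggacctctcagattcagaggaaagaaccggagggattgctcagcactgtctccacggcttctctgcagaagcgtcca
Klf14: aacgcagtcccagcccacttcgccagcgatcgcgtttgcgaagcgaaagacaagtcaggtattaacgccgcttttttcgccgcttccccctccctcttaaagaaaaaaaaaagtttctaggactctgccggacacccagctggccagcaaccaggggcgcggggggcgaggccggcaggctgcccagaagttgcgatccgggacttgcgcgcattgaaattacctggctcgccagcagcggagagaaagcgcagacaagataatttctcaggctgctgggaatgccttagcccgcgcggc

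The Myh3 window holds a TATA box at position -30 and a GC box at position -16, counted in bases from the annotated start, and the Otor window holds a CCAAT box on the opposite strand, whose match begins at position -74. No match was found in the windows of Hormad1, Serpinc1 or Klf14. These windows also differ in CpG content, with 4 CG dinucleotides in Myh3, 18 in Hormad1, 1 in Otor, 7 in Serpinc1 and 26 in Klf14. Among the 32 members that rose and whose symbol has a RefSeq promoter, TATAAA was found in 3 (9.38%), GGGCGG in 6 (18.8%) and CCAAT in 14 (43.8%). In all 27457 promoters the shares were 14.3%, 34.9% and 37.7%, and in 161 members that were not called they were 13%, 42.9% and 33.5%. At least 10 CG dinucleotides were present in 10 of the 32 (31.2%), in 88 of the 161 (54.7%) and in 44.1% of all promoters. These shares are descriptions of the letters in the windows and were not tested.

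How many of these genes still rose was then determined from the fit across all 13733 genes (limma, adjusted p of at most 0.05). Of the 308 members, 56 (18.2%) were called higher after silencing and 1 (0.325%) lower, and all 56 were at least 2-fold higher. Over all genes, 10.9% were called higher, 5.82% higher by at least 2-fold and 4.65% lower. With the replicate block, which takes the rat into account, 70 members (22.7%) were higher, each at least 2-fold, and 3 (0.974%) were lower. The corresponding shares of all genes were 17.6%, 6.6% and 17.7%. All 56 members were among the 70. Among the 879 silent genes that had an expressed gene upstream, 465 (52.9%) were called higher. Their median log2 fold change was 1.83, against 0.20 for the members and -0.04 for all genes. The 879 also started lower, at a median of -1.08 log2 CPM in anti-control against -0.64 for the members. The difference between these sets was not tested, and nothing is read from it. Because the members were chosen by their control level, which is part of the same contrast, these counts describe the members and are no test of them.

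The way genes entered the table bears on these counts. Every listed gene reached at least 0.487 CPM in 6 or more of the 12 libraries, so a gene that was under this level in all controls was listed only if it reached it in all 6 silenced libraries. Of the members, 23 were of this kind and all 23 were called higher, as they had to differ. Among the 879 silent genes with an expressed gene upstream, genes of this kind were not counted. A further 263 members reached the level in 1 to 5 controls, of which 32 were called higher and 0 lower. Of the 22 members that reached it in 6 controls, 1 rose and 1 fell. Scaling also bears on them. Quantile normalization, which forces the same distribution on every library, left 39 of the 56 increases called and all 56 above 0. However, it called 38 members lower and turned the median log2 fold change of the members to -0.87 (-0.07 over all genes). The share of calls that were increases thereby went from 98.2% to 50.6%. The shares of all genes called with this normalization are not given here, so whether the 38 is particular to the members is not read from it. In bulk RNA, a change in the number of cells of a type and a change in RNA per cell cannot be told apart.

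The reads of the rising members were scarce in every control and abundant in every silenced library. Summed over the 56 genes, the level in anti-control ranged from 14.6 to 19.9 CPM (median 18.1) and after silencing from 156 to 257 CPM (median 220). The groups did not overlap, and the lowest silenced library was number 3. The 251 members that were not called summed to 187 to 234 CPM in anti-control (median 203) and 181 to 284 CPM after silencing (median 227), with overlapping groups. Members without a single read numbered 14 to 25 per anti-control library (18.3 ± 4.23, SD, n = 6) and 1 to 8 per silenced library (4.67 ± 3.08, SD, n = 6). Of the 308 members, 66 (21.4%) were higher in all 6 rats, 54 of them among the rising members, against 17.3% of all genes. For 41 members (13.3%), all of them rising, the lowest silenced library lay above the highest control, against 7.92% of all genes. The rising members were selected on the same contrast, so nothing is read from these counts. Tecta alone held 17.5% of the reads of rising members after silencing, and together with Tmprss7, LOC498222, LOC685680 and Serpinc1 it held 41.8%.

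**Figure D1:**
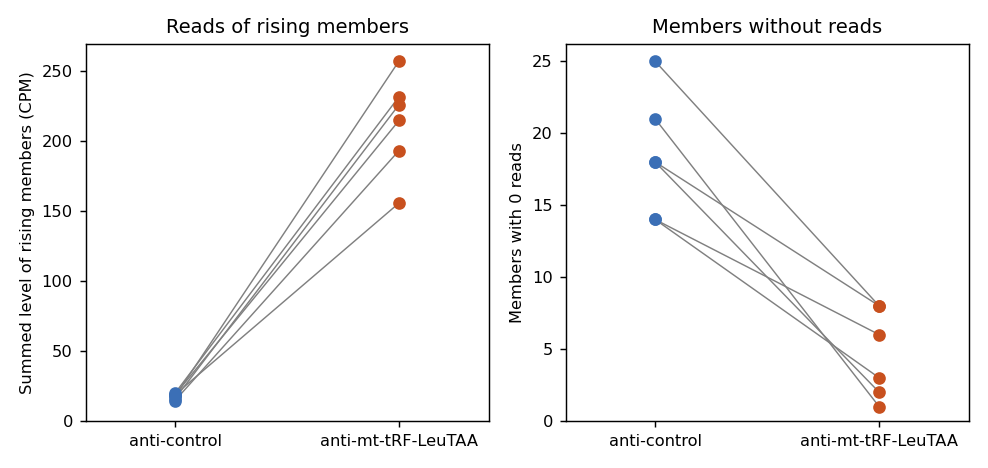
Summed level of the 56 rising members in CPM (left) and number of the 308 members with 0 reads (right) in each library. Every point is a library, and lines join libraries of the same number, taken as 1 rat. The summed level lies between 14.6 and 19.9 CPM in anti-control and between 156 and 257 CPM after silencing, and all 6 lines fall in the right panel.

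Tecta, which encodes alpha-tectorin of the tectorial membrane of the inner ear, had the largest log2 fold change of all members on the deposited scale. Its prior count damps the changes of genes with few control reads, so the order of members on this scale is not their order by ratio of reads. The gene (ENSRNOG00000031126, Rnor_6.0 chromosome 8, 46603728 to 46675544, - strand) had 0 to 6 reads per anti-control library (median 2.5) and 406 to 1044 after silencing (median 744). In log2 CPM it rose from -2.60 ± 0.94 to 5.16 ± 0.47 (SD, n = 6 each), a log2 fold change of 7.76 (SE 0.40). The lowest silenced library was number 3 and the highest number 6, and no silenced library came near a control. Pooled over the libraries, the ratio of CPM was 260, with a 95% counting interval of 162 to 447.

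Serpinc1, the plasma inhibitor antithrombin that is made in the liver, followed on the same scale. It lies on chromosome 13 (ENSRNOG00000002783, 78805347 to 78833192, + strand), and its reads went from 0 to 3 per control (median 1.5) to 128 to 248 per silenced library (median 205.5). Its log2 fold change was 6.43 (SE 0.32). LOC685680, annotated as similar to a TPA-induced transmembrane protein, held 0 to 11 reads in controls (median 1.5) and 150 to 297 after silencing (median 232.5), with a log2 fold change of 6.15 (SE 0.53). It starts 2.1 kb downstream of Tmprss7, which encodes a membrane-bound serine protease, on the same strand of chromosome 11. Tmprss7 (60102121 to 60138059, + strand) had 2 to 19 reads in controls (median 5.5) and 199 to 459 after silencing (median 334), and its log2 fold change was 5.52 (SE 0.47). In controls, the highest values of Tmprss7 were in libraries 5 and 6, and that of LOC685680 was in library 6.

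Klf14 and Tsga13 form another pair on chromosome 4. Klf14, an intronless gene of the Krüppel-like transcription factor family (ENSRNOG00000027557, 58247876 to 58250798, - strand), had 1 read in anti-control library 3 and 0 in the other controls. After silencing it had 36 to 200 reads (median 64), which gave a log2 fold change of 6.04 (SE 0.43). With a single control read the pooled ratio was 552, and its counting interval was wide, 98.6 to 21800. Tsga13, named for its expression in testis, starts 31.2 kb downstream of Klf14 (58195355 to 58216711, - strand). It had 0 reads in all 6 controls and 15 to 113 after silencing (median 55), at least 119-fold higher against a floor of 3 reads over the control group. Both genes were highest in silenced libraries 5 and 6, and these spreads were among the widest of the 20 largest increases (SD 0.95 for Klf14 and 1.23 for Tsga13 on the log2 scale).

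The other members without any control read were AABR07021086.1 and Hormad1. AABR07021086.1, a short gene without annotation (chromosome 13, 56262190 to 56263175, + strand), had 42 to 82 reads after silencing (median 55), at least 116-fold higher. Hormad1, which encodes a protein of the meiotic chromosome axis (ENSRNOG00000021160, chromosome 2, 197682000 to 197719254, + strand), had 16 to 46 reads (median 30), at least 61.4-fold higher. These bounds use the same floor and cover counting error only. All 6 silenced libraries held reads of each of these genes, which the level for listing required of genes without control reads.

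Myh3, the embryonic myosin heavy chain of skeletal muscle, had 0 to 7 reads in controls (median 0.5) and 51 to 143 after silencing (median 121). Its highest control was library 2, and 3 controls had no read. The gene (ENSRNOG00000046276, chromosome 10, 53621375 to 53645194, + strand) had a mean of -3.38 ± 1.20 in controls and of 2.46 ± 0.55 after silencing, in log2 CPM, and a log2 fold change of 5.84 (SE 0.51). LOC498222, annotated as similar to a specifically androgen-regulated protein, went from 3 to 14 reads in controls (median 4) to 129 to 342 (median 239.5), a log2 fold change of 5.25 (SE 0.34). Otor, the cochlear protein otoraplin, had 2 to 5 reads in controls (median 3) and 53 to 100 after silencing (median 84), a log2 fold change of 4.38 (SE 0.26). For each of these, the groups did not overlap, which for Myh3 and Otor the level for listing required.

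The remaining genes among the 20 largest increases had log2 fold changes from 4.13 to 4.99. Rspo2, a secreted enhancer of Wnt signalling, had a single control read and 24 to 56 reads after silencing (median 33). Lrit3, a leucine-rich repeat protein of the retina, had 0 to 5 reads in controls (median 1) and 39 to 60 after silencing (median 55.5). Timm8a2, of a family of mitochondrial import chaperones, went from 1 to 5 reads (median 2) to 34 to 107 (median 76). These genes, too, separated the groups without overlap. None of them reached the level for listing in any control, so their listing required this separation.

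Pla2g4c (a cytosolic phospholipase A2), Akp3 (an intestinal alkaline phosphatase) and LOC102552318 (annotated as actin-like) had 1 control read each. After silencing they held 13 to 36, 17 to 33 and 15 to 35 reads. Nxnl2, which in mouse encodes a survival factor of photoreceptors, had 0 to 2 control reads and 20 to 35 after silencing. LOC102547412, annotated as a zinc finger protein, had 0 to 3 control reads and 20 to 40 after silencing. Saxol1, a protein that binds the microtubules of cilia and sperm tails, had 0 to 1 control reads and 21 to 39 after silencing. At these depths a log2 fold change depends on the prior count, so the reads are the firmer measure.

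**Figure D2:**
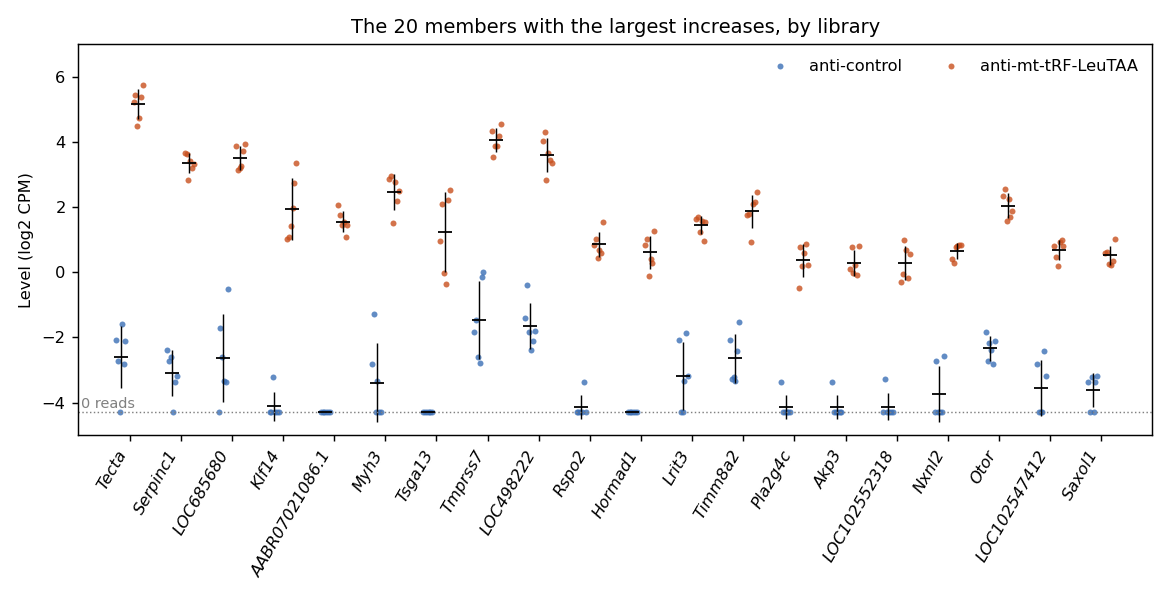
Level in log2 CPM of the 20 members with the largest log2 fold changes in each of the 12 libraries; horizontal marks are group means and vertical lines SD (n = 6), and the dotted line is the value of 0 reads. Every silenced library lies above every control for all 20 genes, from Tecta at a log2 fold change of 7.76 to Saxol1 at 4.13. The level for listing required this of all these genes except LOC685680, Tmprss7 and LOC498222.

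The other 36 rising members had smaller increases, down to a log2 fold change of 1.23 for Dnah6, a ciliary dynein heavy chain. The following were picked from them for their known roles after their values had been seen. Genes known from the retina were Rrh (peropsin), with a log2 fold change of 3.47, and Cacna2d4, a calcium channel subunit, with 2.97. Genes of liver and gut metabolism were Baat, which joins bile acids to amino acids (3.12), and Ugt2a3, a glucuronosyltransferase (2.80). Trpm6, an epithelial magnesium channel, rose by 2.62 on the log2 scale. Terb1, which tethers telomeres in meiosis, rose by 3.38, and Piwil4, of the piRNA pathway, by 1.44. Tac1, the precursor of substance P, had 5 to 48 reads in controls and 35 to 226 after silencing, with overlapping groups (log2 fold change 2.14, SE 0.58). Its highest value in either group was in library 3. Cd96 and Cd226, receptors of T and natural killer cells, had log2 fold changes of 1.99 and 1.94, again with overlapping groups.

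The single member called lower was Fgf14, an intracellular fibroblast growth factor homologue that regulates sodium channels (ENSRNOG00000009288, chromosome 15, 110385217 to 110612681, - strand). It had 11 to 17 reads in controls (median 15) and 3 to 11 after silencing (median 7), and fell by 1.08 on the log2 scale (SE 0.29). Its highest silenced library, number 5, equalled the lowest control in reads. The call was lost when anti-control library 2 or 6, or silenced library 2 or 6, was left out. With the replicate block, AABR07046866.1 (11 to 20 reads in controls, 5 to 17 after silencing) and AABR07018857.1 (12 to 23 and 2 to 20), neither of them annotated, were lower as well.

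Function groups were counted over 14 gene lists, most of them filled by name patterns, of which 13 had at least 1 member and 4 at least 1 rising member. The counts stand beside 10.9% of all genes and 18.2% of members called higher without the block, and 17.6% and 22.7% with it, and with so few members per list nothing is read from them. On the muscle list, 3 of 4 members were called higher, namely Myh3 (embryonic myosin), Klhl41 and Myom3 (sarcomere proteins, log2 fold changes 1.47 and 1.29), while Tnnt3 was not called (0.48). Of 9 ion channel members, Cacna2d4, Trpm6 and Ano3 were called higher, and 5 with the replicate block, which added Kcng3 and Kcnq3. On the list of cilium and sperm axoneme genes, which takes in genes by a coiled-coil name alone, 2 of 8 members were higher, Ccdc183 (3.07) and Dnah6, and 3 with the block. Of the serpin and plasma protein members, Serpinc1 was called higher and Apoh was not; the name pattern also caught Apobec1 and Apobec4, which are of the cytidine deaminase family, and neither was called. None of 5 solute carriers, 5 orphan or adhesion receptors, 5 developmental factors, 4 interleukins and chemokines, 4 neurotransmitter receptors, 3 cadherins, 3 matrix proteins, 2 cytochromes P450 or 1 taste receptor was called without the block. With it, Cxcl2, Glra1 and Sox11 were called higher. Median log2 fold changes were 1.38 over the 4 muscle members, 1.54 over the 9 ion channels and 0.27 over the 8 members of the cilium list, against 0.20 over all members and -0.04 over all genes. No keratin was a member.

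Cxcl2, a neutrophil chemokine, varied far more between rats than between groups. It had 81 to 97 reads in anti-control libraries 1 and 2 and 0 to 4 in the other controls, and 189 and 446 reads in silenced libraries 1 and 2 against 1 to 34 in the others. Its log2 fold change was 2.27. It lies 10.3 kb downstream of Cxcl1, another neutrophil chemokine, on the same strand. Cxcl2 was singled out after its values had been seen.

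Markers of other cell types were examined because the muscle, blood cell and epithelial genes above are also expressed in cells that dispersed islets may carry. Of the skeletal muscle markers, Acta1 was called higher (log2 fold change 1.22), Myh2, Tnnt3 and Des were not, and Ckm, Myh1, Myh4, Myod1 and Myog were not among the genes analysed. The summed level of the 4 analysed was 10.6 to 47.2 CPM in anti-control and 19.6 to 60.8 CPM after silencing. Of 6 macrophage markers, Cd68 was higher (2.02) and the other 5 were not called (Adgre1 was lower with the block), with sums of 41.7 to 114 CPM and 46.2 to 88.5 CPM. Of 6 acinar markers, Prss1, Pnlip and Amy2a3 were not among the genes analysed, Cel was higher (3.23) and Cpa1 and Cela1 were not called, with sums of 1.53 to 15.2 CPM and 5.88 to 14.5 CPM. Of the ductal (4 of 5 analysed), endothelial (4 of 5), Schwann (5 of 5), stromal (5 of 6) and neuronal (4 of 5) markers, none was called without the block, although Kdr was called higher and Krt7, Col1a1, Dcn and Elavl4 lower with it. Sums ranged from 23.3 to 441 CPM for endothelial markers and from 7.86 to 46.4 CPM for Schwann markers in anti-control, and from 35.1 to 417 CPM and from 7.46 to 34.8 CPM after silencing. For ductal, stromal and neuronal markers they were 299 to 469, 977 to 3570 and 160 to 395 CPM in anti-control, and 261 to 347, 381 to 2400 and 162 to 361 CPM after silencing. The groups overlapped for each of these sums, and the part of these cells in the members' changes was not tested.

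The rule excluded upstream genes at or above the median level, but it left those between 0 and 4.47 log2 CPM. Whether rising members had such a gene nearby was therefore determined. A same-strand gene at or above 0 log2 CPM ended within 50 kb upstream of 26 of the 56 rising members (46.4%) and of 26 of the 251 members that were not called (10.4%). Within 10 kb the counts were 15 (26.8%) and 7 (2.79%). Read by distance, 15 of 22 members with such a gene within 10 kb rose (68.2%), and 11 of 30 at 10 to 50 kb (36.7%). At 50 to 500 kb 4 of 59 rose (6.78%), and beyond 500 kb 26 of 197 (13.2%). The respective median log2 fold changes were 2.37, 1.06, 0.10 and 0.09. With the replicate block, the counts called higher were 16, 15, 7 and 32 in the same order of distance. The share of all genes called higher was 10.9%, and 17.6% with the block, as given above. These shares are descriptive, since the rising members were taken from the same contrast. They also hold members listed only through their silenced libraries, which had to differ. Examples are Hormad1 within 10 kb, Myh3 at 10 to 50 kb and Serpinc1 beyond 500 kb. Such members were not counted by distance, so the shares cannot be separated from how genes were listed.

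**Figure D3:**
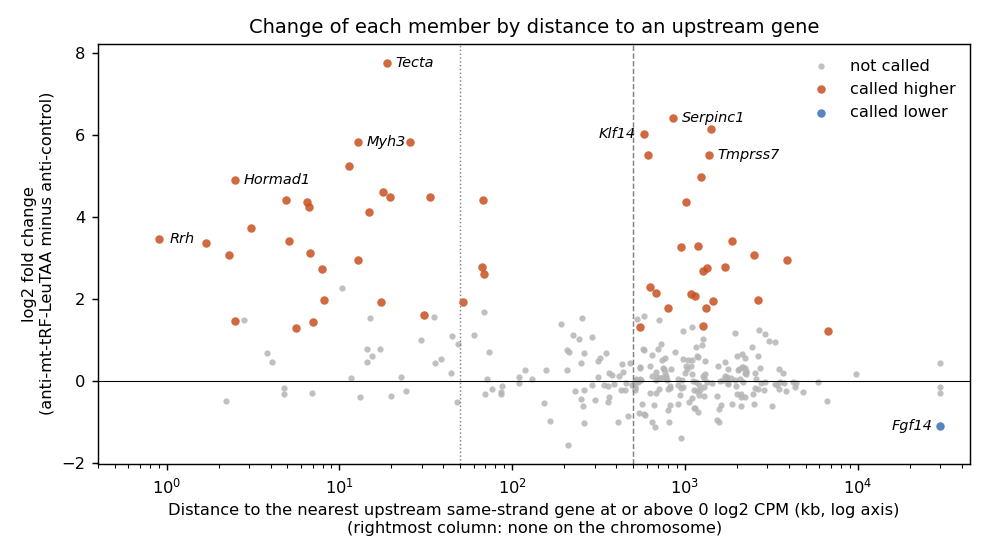
log2 fold change of each of the 308 members against the distance in kb (log axis) from the end of the nearest upstream same-strand gene at or above 0 log2 CPM; the dotted and dashed lines are at 50 and 500 kb, orange points were called higher, the blue point lower and grey points were not called. Of the 22 members within 10 kb 15 were called higher, and of the 197 beyond 500 kb 26 were. Some of these calls were set by the level for listing.

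The 25 upstream genes within 50 kb of rising members were themselves expressed at a median of 3.51 log2 CPM in anti-control and changed little. Their log2 fold changes ranged from -0.29 to 0.72, with a median of 0.10. Only Gar1, a small nucleolar ribonucleoprotein subunit, was called higher (log2 fold change 0.72, SE 0.23, limma adjusted p = 0.0482) and 0 were called lower. With the replicate block 4 of the 25 were higher, Gar1, Sco1, Ciao2b and Ctss, and 0 lower. Of all genes, 10.9% were called higher and 4.65% lower, and 17.6% and 17.7% with the block. Gar1 ends 0.9 kb upstream of Rrh, and Rrh ends 4.9 kb upstream of Lrit3. Along this stretch of chromosome 2, Gar1 went from 2.09 ± 0.43 to 2.81 ± 0.36 log2 CPM, Rrh from -1.16 ± 0.65 to 2.31 ± 0.44 and Lrit3 from -3.17 ± 1.04 to 1.44 ± 0.28 (SD, n = 6 each). Rrh had 3 to 14 reads in controls and 64 to 132 after silencing.

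Several of the largest increases lay behind genes that were not called without the block, of which Sco1 and Ctss were called higher with it. Snrpb2, a spliceosomal protein just under the median level (4.47 log2 CPM in both, to the digits given), ends 6.5 kb upstream of Otor and had a log2 fold change of -0.02. Sco1, a copper chaperone of cytochrome c oxidase, ends 12.9 kb upstream of Myh3 and had 0.37 (limma adjusted p = 0.107, and 0.0151 with the replicate block). Ctss, a lysosomal protease of antigen-presenting cells, ends 2.5 kb upstream of Hormad1 and had 0.63 (limma adjusted p = 0.385, and 0.0459 with the block). Ubac2 ends 19.6 kb upstream of Timm8a2 (-0.12), Yod1, a deubiquitinase, 11.4 kb upstream of LOC498222 (0.15) and Dennd1b 25.5 kb upstream of AABR07021086.1 (0.12). Dhcr7, the last enzyme of cholesterol synthesis, ends 4.9 kb upstream of LOC102552318 (0.12), and Zfp954 6.7 kb upstream of LOC102547412 (-0.16). The nearest gene upstream of Tecta was AC133265.2, at 18.8 kb and 1.18 log2 CPM, with a log2 fold change of 0.47 (limma adjusted p = 0.185).

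Runs of rising members were also found. For 4 of the 56, the nearest listed upstream gene was another rising member within 50 kb, namely LOC685680 behind Tmprss7, Tsga13 behind Klf14, Lrit3 behind Rrh and Akp3 behind Alpg. Alpg, an alkaline phosphatase gene like Akp3, had 6 to 20 reads in controls and 35 to 44 after silencing, a log2 fold change of 1.94 (SE 0.26), and Akp3 starts 48 kb further on. As alkaline phosphatase genes are similar in sequence, reads may have been split between them. Dis3l2, an exoribonuclease, ends 17.5 kb upstream of Alpg and was not called (-0.12). AABR07066677.1 and AABR07066693.1, 73.4 kb apart on 1 strand, rose by 2.68 and 2.77 on the log2 scale, and both were lowest in silenced libraries 3 and 4.

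**Figure D4:**
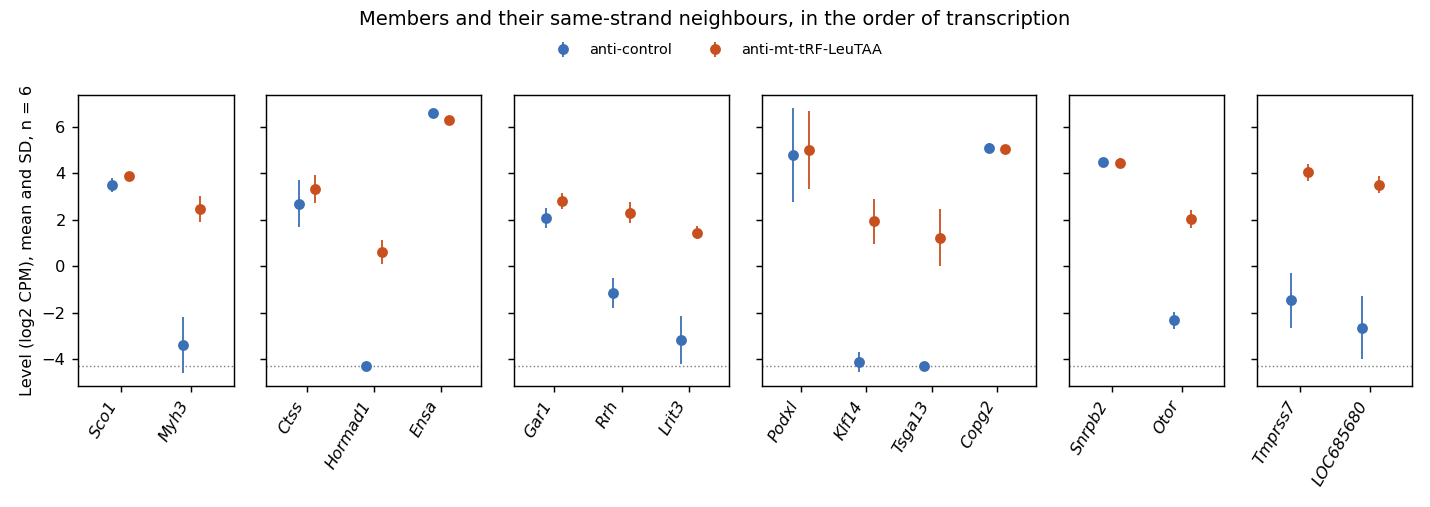
Mean level in log2 CPM with SD (n = 6) of rising members and of neighbours on the same strand, drawn from left to right in the direction of transcription; blue is anti-control, orange anti-mt-tRF-LeuTAA, and the dotted line is the value of 0 reads. Myh3, Hormad1, Rrh, Lrit3, Klf14, Tsga13, Otor, Tmprss7 and LOC685680 move up, while Snrpb2 (log2 fold change -0.02) and Copg2 (-0.04) stay near their control level.

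Neighbours whose levels did not decide whether a member met the rule were examined next. They were picked by their position beside members that rose in the same contrast. Downstream on the same strand, within 50 kb of the ends of rising members, lay 15 genes that were not members, of which 3 were called higher (20%) and 2 lower (13.3%). These shares stand beside 10.9% and 4.65% of all genes. The higher ones were Zfp458, a zinc finger gene 6.8 kb behind AABR07009105.1 (log2 fold change 2.40, SE 0.38, limma adjusted p = 0.00066), Lingo4, a neuronal leucine-rich repeat gene 29 kb behind Them5 (1.43, SE 0.34, limma adjusted p = 0.0112), and Srsf10, a splicing factor 45.8 kb behind Myom3 (0.27, SE 0.07, limma adjusted p = 0.0145). Ensa, a phosphatase inhibitor of mitosis 33.3 kb behind Hormad1, was lower (-0.27, SE 0.05, limma adjusted p = 0.003), as was Vps35, of the retromer, 23.4 kb behind Mylk3 (-0.24, SE 0.06, limma adjusted p = 0.0123). Copg2, a coat protein of Golgi vesicles that starts 0.2 kb behind Tsga13, was not called (-0.04). With the replicate block 5 of the 15 were higher (33.3%) and 3 lower (20%), beside 17.6% and 17.7% of all genes. Near members that were not called, 2 of 39 such genes were higher (5.13%) and 5 lower (12.8%). The difference between these sets was not tested.

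On the opposite strand, 23 non-member genes overlapped or lay within 50 kb of rising members, of which 2 were called higher (8.7%) and 1 lower (4.35%), close to the shares of all genes. Lrtm2, itself a silent gene with -1.54 log2 CPM in anti-control, overlaps Cacna2d4 on the opposite strand. It rose by 3.91 on the log2 scale (SE 0.43, limma adjusted p = 2.91e-05). The kit keeps the strand, but whether the counting used it could not be read from the methods used here, so reads of this pair may not be told apart. Mppe1 near Gnal fell by 0.70 on the log2 scale (SE 0.18, limma adjusted p = 0.0159). With the block 5 were higher and 5 lower (21.7% each), beside the same 17.6% and 17.7%. Overlap was rare otherwise, with 2 of the 56 rising members (3.57%) and 8 of the 251 members not called (3.19%) overlapped by an opposite-strand gene. An opposite-strand gene started within 10 kb upstream of 0 rising members and of 14 members not called (5.58%). AABR07009105.1 was the only rising member that began inside a same-strand gene, AABR07009106.1 (3.77 log2 CPM in anti-control).

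For 24 rising members the table held neither a rising member within 50 kb nor a gene at or above 0 log2 CPM within 500 kb upstream on their strand. They included Serpinc1, Klf14, Tmprss7, Rspo2, Nxnl2 and Mylk3 (a cardiac myosin light chain kinase, log2 fold change 3.31), and 9 of the 24 carried placeholder names. Their immediate upstream neighbours were therefore looked up in the RefSeq gene order of GRCr8, an assembly other than that of the files, from which only the order was taken. For 13 of the 24 the coding gene directly upstream could be named. In 8 of these it was not among the genes analysed here, for example Rc3h1 upstream of Serpinc1, Tagln3 upstream of Tmprss7 and Spin1 upstream of Nxnl2. In 3 it was at or above the median level, namely Podxl upstream of Klf14, Nectin3 upstream of Cd96 and the gene named C19h16orf87 upstream of Mylk3, and in 2 it was between 0 and the median. Podxl, at 4.79 log2 CPM, is the gene that the table also placed upstream of Klf14, at 578.3 kb. Nectin3 is on the opposite strand to Cd96 in the coordinates of the files, so the rule depends on the assembly for such genes. Over all rising members with a named neighbour in this order, it was at or above the median in 3 of 33 (9.09%), and in 17 of 165 members not called (10.3%).

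Members were spread over the genome. Chromosome 4 held 34 members with 7 rising, chromosome 2 held 24 with 6, and chromosomes 3 and 9 held 17 and 20 with 5 rising each. In the same order, these chromosomes held 770, 887, 1021 and 547 listed genes. No rising member was on chromosome 6 (13 members, 598 listed genes) or chromosome 20 (4 members, 406 listed genes). Over all members 18.2% rose, and with so few members per chromosome nothing is read from these counts. Rising members spanned a median of 20.4 kb and members not called 22.2 kb, and their median control levels were -1.87 and -0.52 log2 CPM.

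At the limits of the rule, the values were close. The 3 members nearest under the level limit were Apobec1 (-0.001 log2 CPM in anti-control), Cryba4 (-0.005) and Enkur (-0.025), and the 3 genes just above it were AABR07006269.1 (0.005), Pparg (0.008) and Bmper (0.008). Their log2 fold changes were -0.67, -0.27, 0.30, 0.09, 0.50 and -0.52. At the distance limit, Tff1 (500.6 kb), Ptpn7 (503.5 kb) and Ccl3 (522.6 kb) were members, with log2 fold changes of 0.46, 0.27 and 0.05. Sspo (499.6 kb), Pof1b (499.2 kb) and AC109737.1 (498.1 kb) were not, with 1.28, 0.03 and -0.82.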

How the data were processed

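Total RNA of 12 libraries (6 anti-control, 6 anti-mt-tRF-LeuTAA) was prepared with a stranded kit. The submitters' processing notes list STAR 2.5.3a, cutadapt 1.8 and HTSeq 0.9.1, edgeR 3.30.3 with limma 3.44.3, R 4.0.3 and the assembly Rnor_6.0. Which step each tool served, and whether counting used the strand, was not given in the sources used here. Values deposited by the authors are log2 CPM with a prior count of 1 read scaled to library size. Back-transformation gave whole reads in every library, within 5.5e-08 reads. The deposited group means, fold changes and p-values were not used, nor were the lists of changed genes.

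Members were found from the deposited coordinates, and distances run from the end of the upstream gene to the start of the member. The design had allowed for counts or normalized values; for log2 values, limma 3.58.1 in R 4.3.3 was run over all genes and 12 libraries with an intensity trend and no block, and genes with a Benjamini-Hochberg adjusted p of at most 0.05 were called. Differences are anti-mt-tRF-LeuTAA minus anti-control. Positions were computed with Python 3.11.15 and pandas. The scripts were tested on simulated data. Replicate numbers were taken to pair the libraries, as the study names 1 rat per N without stating which libraries share a rat. Same-numbered libraries correlated by 0.474 to 0.763 after removal of group means. Of the libraries, 5 of 6 anti-control and 6 of 6 silenced correlated best with their own number. A blocked fit, with the rat as a further term, was therefore run beside the main one.

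Ratios of pooled CPM have exact binomial 95% intervals, and a group without reads was set to 3 reads; both cover counting error only. Named genes were the 20 largest increases among members called at least 2-fold higher, the members called lower, up to 10 called members with 0 control reads, the 5 members with the highest level after silencing, the 3 genes on each side of each limit, and neighbours of these. RefSeq names and promoters are those of GRCr8, and 256 of 308 members matched by symbol or synonym. The members, gene lists and markers were chosen with earlier results of these data known. The values of 1 neighbouring gene are not reported here.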

Additional observations from a re-analysis of the deposited data

Results flagged for a closer look

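Of 48 checks for a single library far from the other 5 of its group, 5 were positive. The usual chance rate of about 1 in 20 groups does not hold for these 5, whose other values were tied. All 5 were anti-control libraries with a single read of a gene for which the other 5 controls had none, against a group median of -4.29 log2 CPM, the value of 0 reads. They were Klf14 in library 3 (-3.20 log2 CPM), Rspo2 in library 5 (-3.38), Pla2g4c in library 1 (-3.36), Akp3 in library 1 (-3.36) and LOC102552318 in library 2 (-3.29).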

How the results depend on the processing

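Of 381 values of the 21 named members under other settings, 0 changed direction and 377 kept their side of the threshold; the 4 exceptions were Fgf14 without anti-control library 2 or 6 or silenced library 2 or 6. Of the 56 rising members, 51 were called higher in all 12 fits that left out a library; the number of members called higher was 51 to 57 in these fits, as was the number at least 2-fold higher (54 of 55 without anti-control library 6), and that called lower 0 to 2. limma-voom on recovered reads, limma without trend and a prior count of 5 each called all 56, and a prior count of 0.25 called 55. Beyond the counts and calls given above, the replicate block changed no call of a named member; it called 3 members lower, as did limma without trend, and among neighbours of rising members it called 5 downstream genes higher, and 5 opposite-strand genes higher and 5 lower. Quantile normalization called 38 members lower, turned the members' median log2 fold change to -0.87, with -0.07 over all genes, and left 1 downstream neighbour lower. The share of all genes called lower with it is not given here, and the cause was not tested. A filter at the 10th percentile of the mean level left 10 members, of which 9 rose and 0 fell (median 3.03), and 1 opposite-strand neighbour higher, by its construction. The median log2 fold change was 0.14 to 0.31 when a library was left out, and 0.31 without silenced library 6.

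The number of members and of rising members depended on the rule. A window of 200 kb gave 473 members with 85 rising, beside 10.9% of all genes called higher. Counting upstream genes as expressed from 0 log2 CPM left 197 members with 26 rising (13.2%). A window of 1000 kb left 37 rising. A silent limit of -1 log2 CPM left 85 members, of which 51.8% rose, beside 10.9% of all genes. A lower limit favours genes listed only through their silenced libraries, so this share is partly set by how genes were listed. Silence by the mean over all 12 libraries left 36 rising. All of these rising members were at least 2-fold higher. For the 1000 kb window and for silence over all 12 libraries only the rising count is given, so no share is read from it. The share of members with an upstream gene within 10 kb, in place of 50 kb, was 26.8% for rising members and 2.79% for those not called. With neighbours within 10 kb, 1 downstream gene was higher and 0 lower, and 1 opposite-strand gene was higher; within 100 kb, 4 opposite-strand genes were lower. Leaving out a library gave 1 to 2 opposite-strand neighbours higher and 1 to 2 lower, with 1 higher without anti-control library 1, 3 or 4 or silenced library 2, 5 or 6, and 2 lower without anti-control library 6 or silenced library 3. At these depths a member with under 3 control reads has no firm fold change, and the count over the listed genes does not cover genes outside the table.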
